A study of Mus musculus with 6 samples.

Results

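Ion channel genes were followed in embryonic mouse lenses with a conditional knockout of the transcription factor Prox1 in lens cells. The genes were taken by name from the 6 deposited tables: voltage-gated sodium, epithelial sodium, calcium, potassium, chloride, HCN, cyclic nucleotide-gated, TRPC, TRPM, TRPV, mucolipin and Piezo genes, including auxiliary subunits. Of 41128 features listed, 180 had such a name, and 114 of them had 10 or more counts in at least 3 libraries and were tested. Trpc2 was left out because its count and its CPM (counts scaled to library size) belonged to different rows. The name pattern also took Trpc4ap, whose product binds TRPC4 and is not a channel, and Trpc5os, an antisense transcript without counts.

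The Prox1 cKO group held 3 libraries of Prox1 f/f MLR10Cre+ lenses and the wild type group 3 libraries of lenses without these alleles. All lenses were embryonic, at E13.5, the strain label of both groups was C57Bl/6, and each library was 1 pool of 30 lenses. MLR10-Cre is a transgene with a modified alphaA-crystallin promoter that drives Cre recombinase in lens epithelium and fibre cells, so other cells in a pool are not its target. There were no libraries with Cre alone or with floxed alleles alone, and a transgene or background effect cannot be told apart from loss of Prox1. Nothing in the labels says that pools came from separate litters, and the p-values then cover the spread from pool to pool. Library totals ranged from 9082219 to 28391662 counts in the Prox1 cKO group and from 20731491 to 21061582 counts in the wild type group. A count of 3, taken as the limit that a count of 0 allows, was worth between 0.106 and 0.33 CPM; it covers counting error only.

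Ion channels let ions cross membranes down their gradients, and the lens, which has no blood vessels, depends on ion and water circulation between its epithelium and its fibre cells. Potassium channels set the membrane potential, calcium channels and many TRP channels admit calcium, and chloride channels take part in volume control. Most channels are assemblies of a pore-forming subunit with auxiliary or partner subunits, and a transcript of 1 subunit does not show that a working channel is present. Prox1 is a homeodomain protein needed for lens fibre cells to elongate and to build up crystallins.

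Prox1, the targeted gene, had 651, 729 and 709 CPM in the Prox1 cKO, against 920, 1211 and 1242 CPM in wild type lenses. Its log2 difference was -0.69 (SE 0.141, edgeR adjusted p 0.00766), and its count includes exons that Cre may leave in place. The 6 lens fibre markers measured were lower in the Prox1 cKO, with sums of 17624, 17488 and 19696 CPM against 83294, 143284 and 153976 CPM in the wild type. Crystallin genes took 2.83% to 3.14% of the counts in the Prox1 cKO and 13.2% to 22.7% in the wild type, where library 1 was the lowest. Of the lens epithelium markers, Gja1, Pdgfra and Cdh1 rose and Foxe3 fell. The levels of Prox1 and of the fibre markers above, and all levels below, are CPM scaled by TMM (trimmed mean of M values). They are given for libraries 1, 2 and 3 of a group in that order, and log2 differences are Prox1 cKO minus wild type. Only the CPM worth of 3 counts is by library total, without TMM.

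Of the 114 tested ion channel genes, 48 (42.1%) changed past the threshold, an adjusted p below 0.05 in edgeR's quasi-likelihood test with Benjamini-Hochberg adjustment over 14040 features. Among all 14040 features tested the share was 32.8%. The 28 genes that rose were 24.6% of those tested, against 16.0% of all features, and the 20 that fell were 17.5%, against 16.8%. When libraries were scaled by their total count alone, the median log2 difference of all features was 0.38 in place of 0.04, and the split became 51 ion channel genes higher and 15 lower. A called change of 2-fold or more was found in 37 genes, which is 32.5% of those tested against 10.7% of all features; 22 were higher (5.56% of all features) and 15 lower (5.18%). The groups' libraries did not overlap for 64 genes (56.1%), against 50.1% of all features. The median log2 difference was 0.34 over the tested ion channel genes and 0.04 over all tested features. At an unadjusted p below 0.05 there were 61 ion channel genes (53.5%), against 45.6% of all features.

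The summed level of all 180 names was 2082, 2114 and 2529 CPM in the Prox1 cKO and 2034, 2041 and 2258 CPM in the wild type, so the sums of the groups overlapped and their means differed by 6.2%. By family, calcium channel genes had 8 higher and 1 lower of 19 tested, potassium channel genes 13 higher and 13 lower of 55, sodium channel genes 1 higher and 2 lower of 11. The TRP, mucolipin and Piezo genes had 2 higher and 2 lower of 16, chloride genes 2 higher and 2 lower of 7, and HCN and cyclic nucleotide-gated genes 2 higher and 0 lower of 5. Beside these counts, 16.0% of all features tested were higher and 16.8% lower. In bulk samples, fewer cells of a type and less RNA per cell cannot be told apart.

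**Figure D1:**
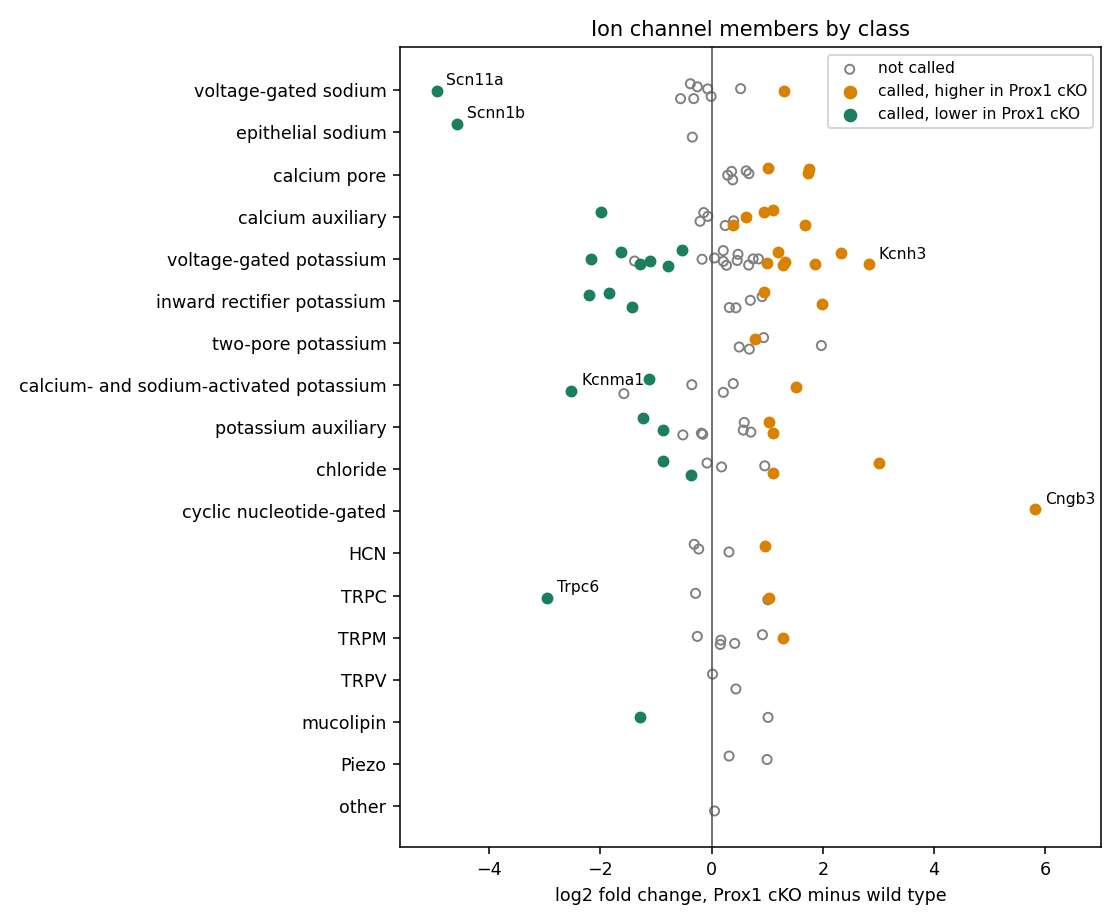
Log2 fold change of each of the 114 tested ion channel genes (x axis, Prox1 cKO minus wild type), 1 point per gene, in rows by channel class. Filled points passed an edgeR adjusted p below 0.05. Cngb3 lies farthest to the right at 5.82, and Scn11a and Scnn1b lie farthest to the left at -4.94 and -4.57.

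Promoters are shown for the 3 ion channel genes with the largest decreases and for the gene with the largest increase among called genes of at least 1 CPM that had exactly 1 start site in the RefSeq promoter table. Each runs from 250 bases before the start site to 50 bases from it, on GRCm38.p6, and the capital letter is the first transcribed base. The RefSeq start of Kcna5 lies upstream of the GENCODE start.
Scn11a promoter, chr9:119825407-119825706, minus strand: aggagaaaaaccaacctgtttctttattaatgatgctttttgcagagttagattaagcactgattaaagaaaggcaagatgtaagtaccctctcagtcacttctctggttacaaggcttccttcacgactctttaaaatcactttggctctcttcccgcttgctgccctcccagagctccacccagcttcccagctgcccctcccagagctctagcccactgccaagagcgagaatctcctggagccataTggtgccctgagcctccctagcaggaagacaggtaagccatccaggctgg
Scnn1b promoter, chr7:121864788-121865087, plus strand: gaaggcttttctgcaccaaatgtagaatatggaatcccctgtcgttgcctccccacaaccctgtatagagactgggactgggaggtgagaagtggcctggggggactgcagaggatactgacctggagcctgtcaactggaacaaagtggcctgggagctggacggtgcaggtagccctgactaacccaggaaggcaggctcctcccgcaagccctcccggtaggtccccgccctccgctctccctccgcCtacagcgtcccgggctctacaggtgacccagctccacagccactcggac
Trpc6 promoter, chr9:8543892-8544191, plus strand: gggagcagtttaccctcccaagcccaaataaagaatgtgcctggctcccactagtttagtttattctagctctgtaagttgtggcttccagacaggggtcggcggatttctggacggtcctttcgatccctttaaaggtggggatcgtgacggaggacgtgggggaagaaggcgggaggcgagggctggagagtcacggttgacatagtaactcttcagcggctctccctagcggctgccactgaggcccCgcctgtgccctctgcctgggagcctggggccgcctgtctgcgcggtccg
Kcna5 promoter, chr6:126535506-126535805, minus strand: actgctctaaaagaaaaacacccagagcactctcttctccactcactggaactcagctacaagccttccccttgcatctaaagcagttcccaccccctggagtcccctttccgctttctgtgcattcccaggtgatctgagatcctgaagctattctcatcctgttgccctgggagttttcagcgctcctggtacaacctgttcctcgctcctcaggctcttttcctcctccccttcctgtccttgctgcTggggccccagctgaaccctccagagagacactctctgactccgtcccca
The promoters of Scn11a, Scnn1b, Trpc6 and Kcna5 had a GC content of 50.3%, 61.7%, 60% and 55%. They were searched on both strands for TGCTGA, the core of the response element of MAF factors, which act in the lens. The core bound by many homeodomain proteins, TAATTA, was searched too, and neither word contains the other. Neither was found in the 4 windows. Of 32841 promoters in the table, 19.5% held the MAF core and 5.29% the homeodomain core. The MAF core was present in 3 of 27 promoters of ion channel genes that rose, in 2 of 16 of those that fell and in 13 of 67 of those not called, and the homeodomain core in 0 of each. These are matches of letters and say nothing of binding.

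Cngb3, which encodes the beta subunit of the cyclic nucleotide-gated channel of cone photoreceptors, had the largest change of any ion channel gene tested. It lies on chromosome 4, 19280850 to 19510623, plus strand (GRCm38). It had 76.6, 89.4 and 71.0 CPM in the Prox1 cKO libraries, against 1.83, 1.2 and 1.09 CPM in the wild type libraries. The Prox1 cKO libraries lay close together and far above the wild type ones. The log2 difference was 5.82 (SE 0.196, edgeR adjusted p 4.79e-06), which is 56.5-fold, and it lay between 5.66 and 6.07 when any 1 library was left out. Cngb3 was 5th among the tested ion channel genes by RPKM (CPM per kilobase of transcript) in the Prox1 cKO, at 18.9 ± 2.24 RPKM, against 0.264 ± 0.104 RPKM in the wild type (mean ± SD of 3 libraries).

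The pore-forming partners of Cngb3 were nearly without counts. Cnga3, the alpha subunit that forms the cone channel with Cngb3, had 1, 5 and 0 counts in the Prox1 cKO libraries and 0 in each wild type library. Cnga1, Cnga2, Cnga4 and Cngb1, which serve rod and olfactory channels, had at most 6 counts in any library. The sum over these 5 genes was 0.50, 1.17 and 0.404 CPM in the Prox1 cKO, against 0.289, 0.513 and 0.517 CPM in the wild type, and the groups overlapped. The summed level of 10 photoreceptor markers was 65.9, 66.1 and 77.6 CPM in the Prox1 cKO, against 65.5, 50.4 and 49.4 CPM in the wild type. Of the 5 tested, Otx2, also a retina and pigment cell factor, rose (log2 0.76, edgeR adjusted p 0.0449) and the photoreceptor factor Crx had a log2 difference of -0.35 (edgeR adjusted p 0.297). Rcvrn, Nrl, Pde6h and Opn1sw were not tested, with means at or below 0.323 CPM in both groups.

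**Figure D2:**
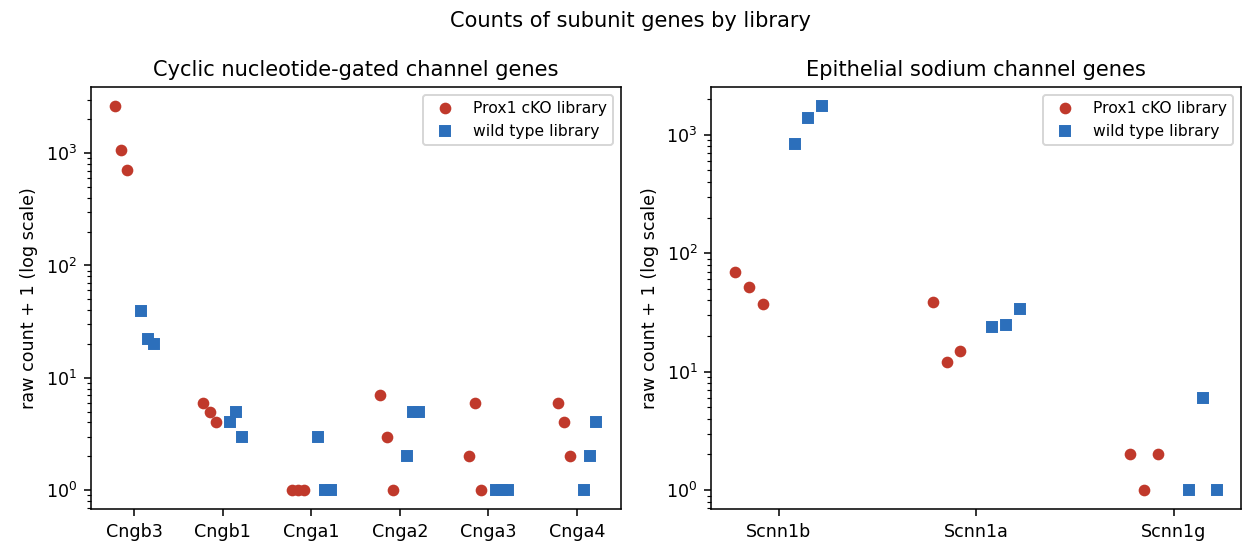
Raw count plus 1 on a log axis for the 6 cyclic nucleotide-gated channel genes (left) and the 3 epithelial sodium channel genes (right), with circles for the 3 Prox1 cKO libraries and squares for the 3 wild type libraries. Cngb3 had 703 to 2603 counts in the Prox1 cKO and 19 to 38 in the wild type, Scnn1b had 36 to 69 in the Prox1 cKO and 837 to 1732 in the wild type, and the partner subunits other than Scnn1a stayed at 6 counts or below.

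Among sodium channel genes the main changes were decreases of 2 genes known for other tissues. Scn11a encodes Nav1.9, a persistent sodium channel of pain-sensing neurons (chromosome 9, 119753759 to 119825456, minus strand). It had 0.588, 1.51 and 0.303 CPM in the Prox1 cKO libraries, against 14.9, 25.4 and 30.8 CPM in the wild type libraries. Scn11a was thus low in the Prox1 cKO, at 20, 18 and 3 counts, with only library 3 at the limit of 3 counts. It was present in every wild type library. Its log2 difference was -4.94 (SE 0.452, edgeR adjusted p 0.000208), or 30.7-fold, and it lay between -5.52 and -4.62 with any 1 library left out.

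Scnn1b, which encodes the beta subunit of the epithelial sodium channel ENaC (chromosome 7, 121865038 to 121918514, plus strand), had 2.03, 4.27 and 3.64 CPM in the Prox1 cKO, against 40.3, 79.4 and 99.4 CPM in the wild type. Its log2 difference was -4.57 (SE 0.403, edgeR adjusted p 0.000192), or 23.7-fold. Per length it was the 2nd most abundant tested ion channel gene of the wild type, at 26.3 ± 9.13 RPKM, and the 45th of the Prox1 cKO, at 1.53 ± 0.476 RPKM (mean ± SD of 3 libraries). Its partner subunits were low in both groups. Scnn1a, the alpha subunit, had 1.12, 0.920 and 1.41 CPM in the Prox1 cKO and 1.11, 1.37 and 1.89 CPM in the wild type, with overlapping groups and a log2 difference of -0.35 (SE 0.326, edgeR adjusted p 0.435). Scnn1g, the gamma subunit, had at most 5 counts in any library and was not tested.

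Scn8a, a neuronal sodium channel gene at 9.48 ± 2.13 CPM in the Prox1 cKO and 11.7 ± 0.995 CPM in the wild type (mean ± SD of 3 libraries), was not called (log2 -0.32, edgeR adjusted p 0.206). Of the other voltage-gated genes, Scn1a, Scn2a1, Scn3a, Scn4a and Scn3b had log2 differences between -0.56 and 0.52 and were not called. The summed level of 8 neuron markers was 110, 93.9 and 109 CPM in the Prox1 cKO and 132, 144 and 92.9 CPM in the wild type, with 1 marker higher and 1 lower of 8; the part of neurons in the sodium channel results was not tested.

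Of 19 calcium channel genes tested, 8 rose, 1 fell and 10 were not called. Their auxiliary subunit genes summed to 329, 294 and 312 CPM in the Prox1 cKO, against 182, 165 and 183 CPM in the wild type, with no overlap. Auxiliary subunits steer trafficking and gating of the pore, but this sum includes genes of the TARP family, whose products regulate AMPA receptors. Of these, Cacng4 and Cacng7 had means of 99.8 and 67.4 CPM in the Prox1 cKO, against 31.2 and 43.8 CPM in the wild type. The pore genes summed to 139, 141 and 227 CPM in the Prox1 cKO, against 117, 71.9 and 94.6 CPM in the wild type. Of 11 auxiliary genes tested, 5 rose and 1 fell, with a median log2 difference of 0.38. Of 8 pore genes tested, 3 rose and 0 fell, with a median of 0.65. Over all features tested, 16.0% rose and 16.8% fell, with a median of 0.04.

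Cacng4, a gamma subunit gene of the TARP family that also regulates AMPA receptors (chromosome 11, 107732357 to 107794557, minus strand), had 104, 93.8 and 102 CPM in the Prox1 cKO, against 35.9, 29.0 and 28.6 CPM in the wild type. The 3.20-fold difference between the groups was far larger than their spread (log2 1.68, SE 0.114, edgeR adjusted p 8.67e-05). Cacng7, of the same family, had 76.4, 64.3 and 61.5 CPM in the Prox1 cKO, against 43.3, 42.4 and 45.7 CPM in the wild type (log2 0.63, SE 0.106, edgeR adjusted p 0.00345). By RPKM, Cacng7 and Cacng4 were the 2nd and 3rd tested ion channel genes in the Prox1 cKO, at 34.6 ± 5.99 and 31.5 ± 3.01, and the 6th and 12th in the wild type, at 17.7 ± 1.56 and 7.82 ± 1.80 (mean ± SD of 3 libraries). Their relatives Cacng2 and Cacng8 stood between 0.918 and 2.18 CPM and were not called.

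Cacnb3, a beta subunit gene, had 44.9, 35.3 and 37.3 CPM in the Prox1 cKO, against 23.7, 15.1 and 15.9 CPM in the wild type (log2 1.11, SE 0.185, edgeR adjusted p 0.00331). The beta subunit genes Cacnb1 and Cacnb2 had log2 differences of -0.07 and 0.39 and were not called. The alpha2delta genes, whose products raise the number of channels at the surface, went both ways. Cacna2d4, a retinal form, was at 0.324, 0.502 and 0.505 CPM in the Prox1 cKO, against 1.11, 1.88 and 2.01 CPM in the wild type, and fell (log2 -1.98, edgeR adjusted p 0.00692). Cacna2d2 (log2 0.94, edgeR adjusted p 0.0203) and Cacna2d1 (log2 0.38, edgeR adjusted p 0.0327) rose.

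Cacna1c, the pore of the cardiac L-type channel Cav1.2, had 18.1, 24.2 and 37.9 CPM in the Prox1 cKO, against 9.92, 5.82 and 8.21 CPM in the wild type. All Prox1 cKO libraries were above all wild type ones, with library 3 the highest (log2 1.72, SE 0.294, edgeR adjusted p 0.00351). Cacna1d, the other L-type gene tested and the highest pore gene per length, had 55.0, 51.7 and 60.6 CPM in the Prox1 cKO and 52.3, 33.4 and 42.7 CPM in the wild type and was not called (log2 0.38, edgeR adjusted p 0.0956). Of the T-type pores, which open at low voltage, Cacna1g and Cacna1h rose and Cacna1i was not called (log2 0.67, edgeR adjusted p 0.239). Cacna1g had 23.2, 18.2 and 61.4 CPM in the Prox1 cKO, against 13.6, 5.25 and 11.3 CPM in the wild type (log2 1.74, SE 0.489, edgeR adjusted p 0.0270). Cacna1h had 16.8, 18.1 and 29.2 CPM in the Prox1 cKO, against 14.2, 8.04 and 9.24 CPM in the wild type (log2 1.01, SE 0.273, edgeR adjusted p 0.0237). In both T-type genes Prox1 cKO library 3 stood above the other libraries, and without it the log2 difference of Cacna1g was 1.04. The calls of Cacna1g, Cacna1h and Cacna2d2 were lost without Prox1 cKO library 3, wild type library 2 or wild type library 3, with edgeR adjusted p up to 0.0996, 0.1 and 0.0836; that of Cacna2d1 was lost without Prox1 cKO library 2 or 3 or wild type library 1 or 2, with edgeR adjusted p up to 0.159.

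**Figure D3:**
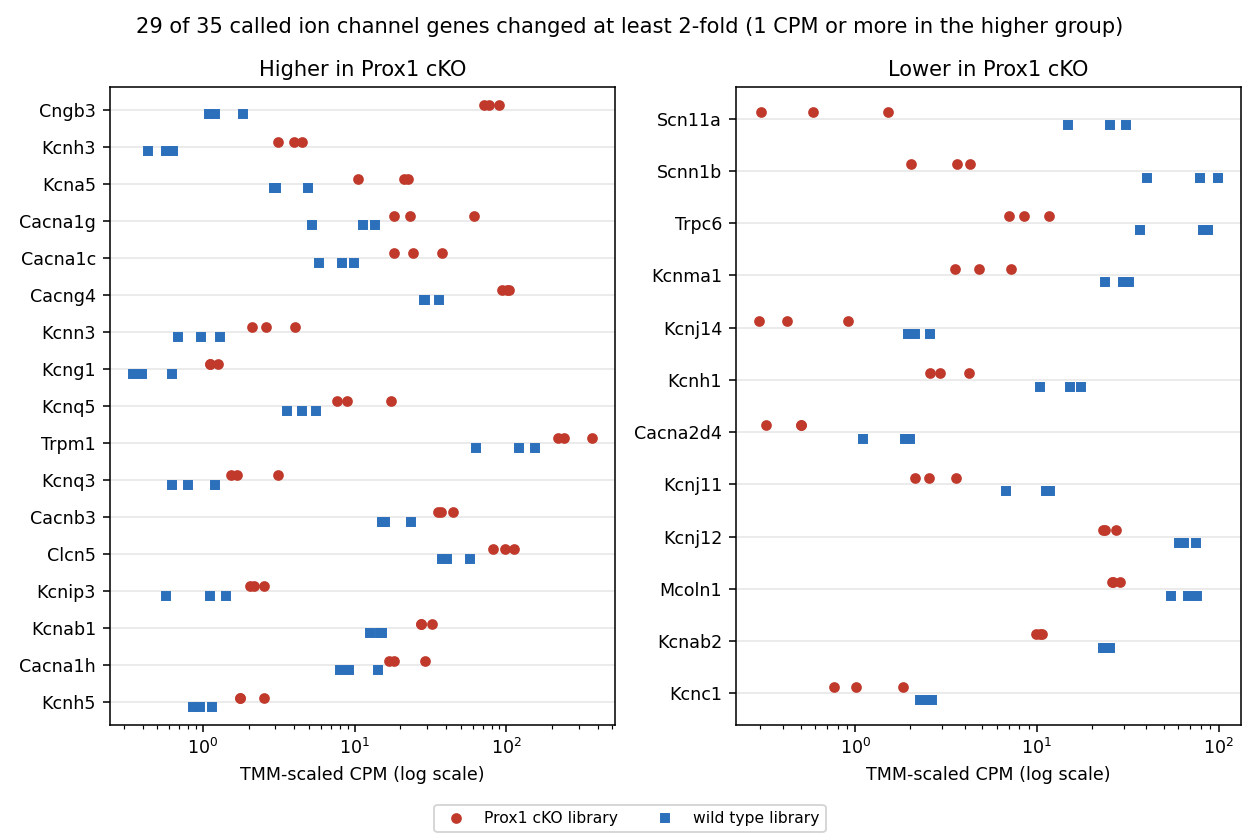
TMM-scaled CPM on a log axis for 29 of the 35 called ion channel genes that changed at least 2-fold and had at least 1 CPM in the higher group, with higher genes at left and lower genes at right. Each circle is 1 of 3 Prox1 cKO libraries and each square 1 of 3 wild type libraries. The groups do not overlap in any of these genes, and in Cacna1g a single Prox1 cKO library lies well above the other 2.

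Potassium channel genes changed in both directions in equal number. Of 24 voltage-gated pore genes tested, 7 rose and 6 fell, and of 9 inward rectifiers 2 rose and 3 fell. The 5 two-pore genes had 1 higher and 0 lower, the 7 calcium- and sodium-activated genes 1 higher and 2 lower, and the 10 auxiliary genes 2 higher and 2 lower. The shares over all features tested were 16.0% higher and 16.8% lower. Summed over a class, the inward rectifiers were at 52.3, 63.7 and 58.9 CPM in the Prox1 cKO, against 92.3, 110 and 98.7 CPM in the wild type.

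The largest potassium channel decrease was that of Kcnma1, the pore of the calcium-activated BK channel (chromosome 14, 23289431 to 24014491, minus strand). It had 3.56, 4.77 and 7.17 CPM in the Prox1 cKO, against 23.7, 29.7 and 32.2 CPM in the wild type. The groups were clearly apart (log2 -2.52, SE 0.251, edgeR adjusted p 0.000293), and 5.98% of the exon bases of Kcnma1 are shared with 4930519K11Rik on the opposite strand. The BK beta subunit genes Kcnmb2 and Kcnmb4 were not called, with log2 differences of -0.16 and 0.57. Kcnn3, a small-conductance calcium-activated channel gene, had 2.12, 2.59 and 4.04 CPM in the Prox1 cKO, against 1.3, 0.685 and 0.976 CPM in the wild type (log2 1.51, edgeR adjusted p 0.0150), and its relatives Kcnn1 and Kcnn2 were not called (log2 0.39 and 0.21). Kcnu1, the sperm potassium channel gene, was below 1.1 CPM in every library and fell (log2 -1.13, edgeR adjusted p 0.0453). The call of Kcnn3 was lost without wild type library 2 or 3 (edgeR adjusted p up to 0.0664), and that of Kcnu1 without any 1 of the 6 libraries (up to 0.119).

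Inward rectifiers pass potassium into cells more easily than out and hold the resting potential. Kcnj12, for Kir2.2, had 23.8, 27.4 and 23.1 CPM in the Prox1 cKO, against 60.6, 74.8 and 64.7 CPM in the wild type. It was the 3rd tested ion channel gene per length in the wild type, at 21.5 ± 1.67 RPKM, and the 13th in the Prox1 cKO, at 10.1 ± 0.888 RPKM (mean ± SD of 3 libraries), and its decrease was far larger than the spread (log2 -1.43, SE 0.118, edgeR adjusted p 0.000163). Kcnj11, the pore of the ATP-sensitive channel, had 2.56, 3.60 and 2.12 CPM in the Prox1 cKO, against 6.79, 11.9 and 11.2 CPM in the wild type (log2 -1.85, SE 0.282, edgeR adjusted p 0.00213). Kcnj8, the other ATP-sensitive pore gene, had a log2 difference of 0.70 and was not called (edgeR adjusted p 0.0633). Kcnj14 had 0.294, 0.418 and 0.909 CPM in the Prox1 cKO, against 2.12, 2.57 and 1.95 CPM in the wild type (log2 -2.20, edgeR adjusted p 0.00581). The relatives of Kcnj12 did not all move with it: Kcnj14 fell, and Kcnj2 was not called (log2 0.32). Kcnj4 rose at a low level, with 17, 10 and 10 counts in the Prox1 cKO against 4, 2 and 4 in the wild type (log2 1.98, edgeR adjusted p 0.0186). Kcnj4 passed the filter through the Prox1 cKO libraries alone, so its direction was in part fixed by the filter. Kcnj3, for a G protein-gated channel, rose (log2 0.95, edgeR adjusted p 0.0147), and 31.1% of its exon bases are shared with Gm26794 on the opposite strand. The libraries were unstranded, so reads from the shared bases cannot be assigned to Kcnj3 or Gm26794. Kcnj3 was 1 of 2 called genes with over 10% of exon bases shared on the opposite strand. The call of Kcnj3 was lost without wild type library 2 or 3 (edgeR adjusted p up to 0.0703), and that of Kcnj4 without any 1 Prox1 cKO library or wild type library 2 (up to 0.0790).

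Among the voltage-gated potassium genes that fell, Kcnh1, of the ether-a-go-go family, had 2.59, 2.93 and 4.24 CPM in the Prox1 cKO, against 10.4, 15.1 and 17.4 CPM in the wild type (log2 -2.17, SE 0.263, edgeR adjusted p 0.000712). Kcnh2, for the cardiac repolarising channel hERG, was the highest voltage-gated potassium gene per length and had 49.2, 49.5 and 38 CPM in the Prox1 cKO, against 63.0, 69.5 and 65.5 CPM in the wild type. Its decrease was small (log2 -0.53, edgeR adjusted p 0.0114) and was not called under total count scaling. The fast-firing Kv3 gene Kcnc1 (log2 -1.11, edgeR adjusted p 0.0428) fell at levels below 3 CPM. Kcnd3, an A-type channel gene, had 43.6, 52.6 and 51.3 CPM in the Prox1 cKO, against 54.6, 85.5 and 115 CPM in the wild type (log2 -0.79, edgeR adjusted p 0.0331). Wild type library 1 came close to the Prox1 cKO libraries, and the call of Kcnd3 was lost without any 1 library other than wild type library 1 (edgeR adjusted p up to 0.102); that of Kcnc1 was lost without any 1 library other than Prox1 cKO library 2 (up to 0.117).

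Kcna5, for the delayed rectifier Kv1.5 (chromosome 6, 126532551 to 126535412, minus strand), was the highest per length, in both groups, of the voltage-gated genes that rose. It had 22.6, 21.3 and 10.6 CPM in the Prox1 cKO, against 4.91, 3.02 and 2.93 CPM in the wild type (log2 2.33, SE 0.324, edgeR adjusted p 0.00139). Prox1 cKO library 3 was the lowest of its group and still above the wild type. Kcnh3, a brain ether-a-go-go-like gene, had 3.97, 4.52 and 3.13 CPM in the Prox1 cKO, against 0.434, 0.570 and 0.631 CPM in the wild type (log2 2.83, SE 0.290, edgeR adjusted p 0.000335). Thus within the Kcnh family Kcnh3 and Kcnh5 (log2 1.00, edgeR adjusted p 0.0321) rose while Kcnh1 and Kcnh2 fell. Kcng1, a silent subunit gene, rose at a low level (log2 1.31, edgeR adjusted p 0.0236).

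Kcnq5 had 8.86, 7.70 and 17.4 CPM in the Prox1 cKO, against 5.54, 3.59 and 4.53 CPM in the wild type (log2 1.29, edgeR adjusted p 0.0181). Kcnq3, a partner in the neuronal M-current, had 1.53, 1.67 and 3.13 CPM in the Prox1 cKO, against 1.2, 0.628 and 0.804 CPM in the wild type (log2 1.2, edgeR adjusted p 0.0481). Both KCNQ genes were highest in Prox1 cKO library 3, and Kcnq1 was not called (log2 0.27). The calls of Kcng1 and Kcnh5 were lost without Prox1 cKO library 2, wild type library 2 or wild type library 3, that of Kcnh5 also without Prox1 cKO library 3 or wild type library 1, with edgeR adjusted p up to 0.0926 and 0.125. The call of Kcnq5 was lost without wild type library 2 or 3 (edgeR adjusted p up to 0.0837), and that of Kcnq3 without those or Prox1 cKO library 2 or 3 (up to 0.167).

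The potassium auxiliary genes of the Kv beta family went opposite ways. Kcnab2 had 10.4, 10.6 and 9.90 CPM in the Prox1 cKO, against 24.1, 25.3 and 23.2 CPM in the wild type (log2 -1.23, SE 0.115, edgeR adjusted p 0.000232). Kcnab1 had 27.5, 27.4 and 32.4 CPM in the Prox1 cKO, against 12.7, 14.8 and 15.2 CPM in the wild type (log2 1.03, SE 0.128, edgeR adjusted p 0.000828). Replicates lay close together in both genes. Per length, Kcnab1 and Kcnab2 averaged 3.81 and 2.09 RPKM in the Prox1 cKO and 1.46 and 3.86 RPKM in the wild type. Kcne1, whose product slows KCNQ1 channels, fell (log2 -0.87, edgeR adjusted p 0.00555), with 9.0, 8.87 and 11.5 CPM in the Prox1 cKO against 15.2, 19.6 and 18.7 CPM in the wild type. Kcnip3, a calcium-binding partner of A-type channels, rose at a low level (log2 1.1, edgeR adjusted p 0.0420), and lost the call without any 1 of the 6 libraries (up to 0.119). Of the two-pore leak channel genes, Kcnk5 rose (log2 0.77, edgeR adjusted p 0.0233), which was no longer called without Prox1 cKO library 3 or wild type library 2 or 3 (up to 0.0997). Kcnk1, the highest of that class per length, had 27.5, 18.7 and 17.4 CPM in the Prox1 cKO and 15.4, 15.4 and 14.7 CPM in the wild type and was not called (log2 0.50, edgeR adjusted p 0.0642).

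The TRP genes held both the most abundant ion channel gene and a large decrease. Trpc6, a diacylglycerol-activated calcium-permeable channel gene (chromosome 9, 8544142 to 8680741, plus strand), had 7.0, 8.53 and 11.7 CPM in the Prox1 cKO, against 37.1, 88.0 and 81.6 CPM in the wild type (log2 -2.96, SE 0.341, edgeR adjusted p 0.000568). Its difference, 7.78-fold, was larger than the spread even though wild type library 1 had less than the other wild type libraries. Trpc1 and Trpc4 were not called (log2 -0.29 and 1.01, edgeR adjusted p 0.185 and 0.154).

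Trpm3, a heat- and steroid-activated channel gene, was first by RPKM in both groups, at 41.0 ± 4.35 in the Prox1 cKO and 38.5 ± 1.53 in the wild type (mean ± SD of 3 libraries). It had 258, 284 and 340 CPM in the Prox1 cKO and 315, 352 and 386 CPM in the wild type, and the overlapping groups gave no call (log2 -0.26, SE 0.131, edgeR adjusted p 0.160). Trpm1, known from melanocytes and retinal bipolar cells, had 239, 220 and 368 CPM in the Prox1 cKO, against 155, 63.2 and 122 CPM in the wild type. Its increase was 2.42-fold (log2 1.28, SE 0.316, with an edgeR adjusted p of 0.0172), and the adjusted p was 0.0524 without wild type library 3. Trpm7, a channel with a kinase domain, had 124 ± 8.62 CPM in the Prox1 cKO and 110 ± 6.05 CPM in the wild type and was not called (log2 0.17, edgeR adjusted p 0.194).

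Trpm1 and Trpm3 each carry a miRNA on the same strand within the gene, and the mature RefSeq sequences are shown because the pair has 1 seed in common (bases 2 to 8, in capitals; GRCm38.p6).
mmu-miR-211-5p, within Trpm1, chr7:64205831-64205852, plus strand: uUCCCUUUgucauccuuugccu
mmu-miR-204-5p, within Trpm3, chr19:22750610-22750631, plus strand: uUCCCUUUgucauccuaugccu
Both seeds read UCCCUUU. The libraries were made from polyadenylated RNA, so the miRNAs themselves were not measured, and the host transcripts differed as given above.

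Mcoln1, a calcium release channel of lysosomes, had 28.8, 26.4 and 25.8 CPM in the Prox1 cKO, against 54.9, 67.7 and 76.1 CPM in the wild type (log2 -1.29, SE 0.132, edgeR adjusted p 0.000335). Its relative Mcoln3 had 5.44, 3.43 and 4.45 CPM in the Prox1 cKO and 3.52, 1.88 and 1.21 CPM in the wild type, with overlap and no call (log2 1.01, edgeR adjusted p 0.0693). The touch- and pressure-activated channel genes Piezo1 and Piezo2 were not called. Piezo2 had 28.2, 37.5 and 70.0 CPM in the Prox1 cKO and 30.1, 17.0 and 20.1 CPM in the wild type (log2 1.00, edgeR adjusted p 0.0509), and Piezo1 had a log2 difference of 0.31 (edgeR adjusted p 0.314). Trpv2 and Trpv4 stood between 0.669 and 2.18 CPM and were not called (log2 0.44 and 0.02), and the other 4 Trpv genes had too few counts to be tested.

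Chloride channel genes were split by member. Clcn6, for a chloride-proton exchanger of late endosomes, had 53.8, 54.5 and 56.2 CPM in the Prox1 cKO, against 91.6, 87.9 and 124 CPM in the wild type (log2 -0.88, SE 0.135, edgeR adjusted p 0.00217). Clcn5, for the exchanger of early endosomes, had 82.0, 97.8 and 112 CPM in the Prox1 cKO, against 57.4, 37.5 and 40.5 CPM in the wild type (log2 1.1, SE 0.178, edgeR adjusted p 0.00278). The endosomal exchanger genes thus changed in opposite directions, without overlap in either. Clcn3 fell slightly (log2 -0.37, edgeR adjusted p 0.0161) but was no longer called without wild type library 2 (0.0641) and under total count scaling, and the lysosomal Clcn7 (log2 -0.08) and the surface channel Clcn2 (log2 0.18) were not called.

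The HCN genes, for pacemaker channels opened by hyperpolarisation, were expressed below 6 CPM in all libraries. Hcn4 rose, with 2.71, 3.51 and 5.46 CPM in the Prox1 cKO against 2.41, 1.65 and 1.78 CPM in the wild type (log2 0.96, edgeR adjusted p 0.0480), no longer called without Prox1 cKO library 2 or 3 or wild type library 2 or 3 (up to 0.167). Hcn2 and Hcn3 were not called (log2 -0.31 and -0.23).

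Per length, the ion channel genes at the top of the list differed between the groups. At or above 1 RPKM there were 55 tested ion channel genes in the Prox1 cKO and 40 in the wild type, and at or above 10 RPKM 13 in the Prox1 cKO and 9 in the wild type. In the Prox1 cKO the order began with Trpm3, Cacng7, Cacng4, Trpm1 (26.9 ± 7.16 RPKM) and Cngb3, and each of these overlapped its neighbour within 1 SD. In the wild type it began with Trpm3, Scnn1b, Kcnj12, Trpc6 (19.7 ± 6.70 RPKM) and Mcoln1 (17.9 ± 1.51 RPKM). From Scnn1b to Mcoln1 neighbours overlapped within 1 SD, and Trpm3 lay above. The deposited RPKM values carry no TMM scaling, so they give the order of genes and not the size of a change between groups. The called genes included low ones: of 39 tested genes with a mean below 2 CPM over the 6 libraries 6 rose and 4 fell, of 38 between 2 and 10 CPM 10 rose and 3 fell, and of 37 at 10 CPM or more 12 rose and 13 fell. Among all features tested, at any level, 16.0% rose and 16.8% fell.

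**Figure D4:**
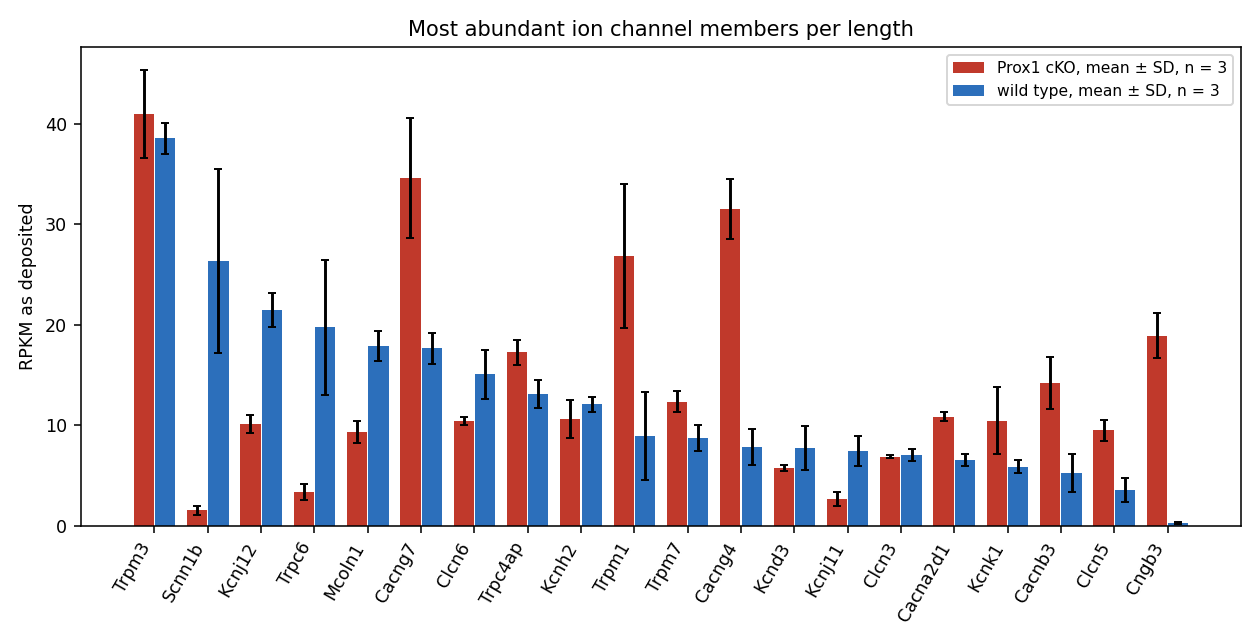
Deposited RPKM (y axis) of the 20 tested ion channel genes that ranked among the top 15 in either group, in order of their wild type mean. Bars are means and error bars SDs over 3 libraries, Prox1 cKO left of wild type. Trpm3 was highest in both groups, while Scnn1b stood at 1.53 RPKM in the Prox1 cKO against 26.3 in the wild type and Cngb3 at 18.9 RPKM in the Prox1 cKO against 0.264 in the wild type.

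Markers of cells around the lens also differed between the libraries. Summed over 6 pigment cell markers, of which 6 rose, the level was 345, 248 and 702 CPM in the Prox1 cKO, against 163, 52.0 and 133 CPM in the wild type. Summed over 7 periocular mesenchyme markers, of which 2 of 6 tested rose and Foxc2 was at 0 in all libraries, it was 744, 522 and 2408 CPM in the Prox1 cKO, against 423, 210 and 358 CPM in the wild type. Surface ectoderm markers, 6 of 6 higher, summed to 70.6, 39.2 and 133 CPM in the Prox1 cKO, against 28.6, 9.41 and 20 CPM in the wild type. Neural retina markers, 4 of 8 higher, summed to 2279, 2016 and 1569 CPM in the Prox1 cKO, against 1003, 708 and 737 CPM in the wild type. Of erythroid, endothelium, macrophage and skeletal muscle markers, 1 of 6, 1 of 6, 0 of 5 and 0 of 3 tested rose and 0 fell. Within both groups the pigment, mesenchyme and ectoderm sums had the same order of libraries, Prox1 cKO 3, 1, 2 and wild type 1, 3, 2.

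That order was shared by 5 of the 28 ion channel genes that rose, namely Trpm1, Cacna1g, Kcnq5, Kcnj3 and Kcnk5, by 0 of the 20 that fell and by 9 of the 66 not called. Prox1 cKO library 3 was the highest of its group in 20 of the 28 genes that rose. It exceeded 1.5 times the mean of the other Prox1 cKO libraries in 10 of them, among them Cacna1g, Kcnq5, Kcnq3, Cacna1c, Hcn4, Kcnn3, Cacna1h, Trpm1 and Kcnj4. Neither trait was particular to genes that rose, as library 3 was also the highest Prox1 cKO library in most genes not called. The same ratio was exceeded in Piezo2, which was not called, and in Kcnma1, Trpc6, Kcnh1 and Kcnj14, which fell. Cngb3, Kcnh3 and Kcna5 were lowest in Prox1 cKO library 3, where pigment, mesenchyme and ectoderm sums were highest and the neural retina sum was the lowest of the Prox1 cKO. Within the Prox1 cKO, Kcna5 had the same order of libraries as the neural retina sum, 1, 2, 3. In the wild type the orders differed, 1, 2, 3 for Kcna5 and 1, 3, 2 for the sum. The Prox1 cKO order was also that of Cacng7, which rose, of Mcoln1 and Kcnu1, which fell, and of Kcnk1 and Trpc4ap, not called. Of the 20 genes that fell, 15 were lowest of the wild type in library 1, among them Scn11a, Scnn1b and Trpc6. Conversely, 19 of the 28 genes that rose were highest of the wild type in that library. The lens fibre sum was lowest in wild type library 1 too, as were some genes not called, such as Trpm3. Shares over all features were not counted for these library orders. The part of other cell types in the increases was not tested, nor was that of fibre content in the decreases. Of the 48 called genes, 28 kept the call whichever library was left out, and they include Cngb3, Scn11a, Scnn1b, Trpc6, Kcnma1, Kcna5, Kcnh3, Cacng4 and Cacna1c.

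**Figure D5:**
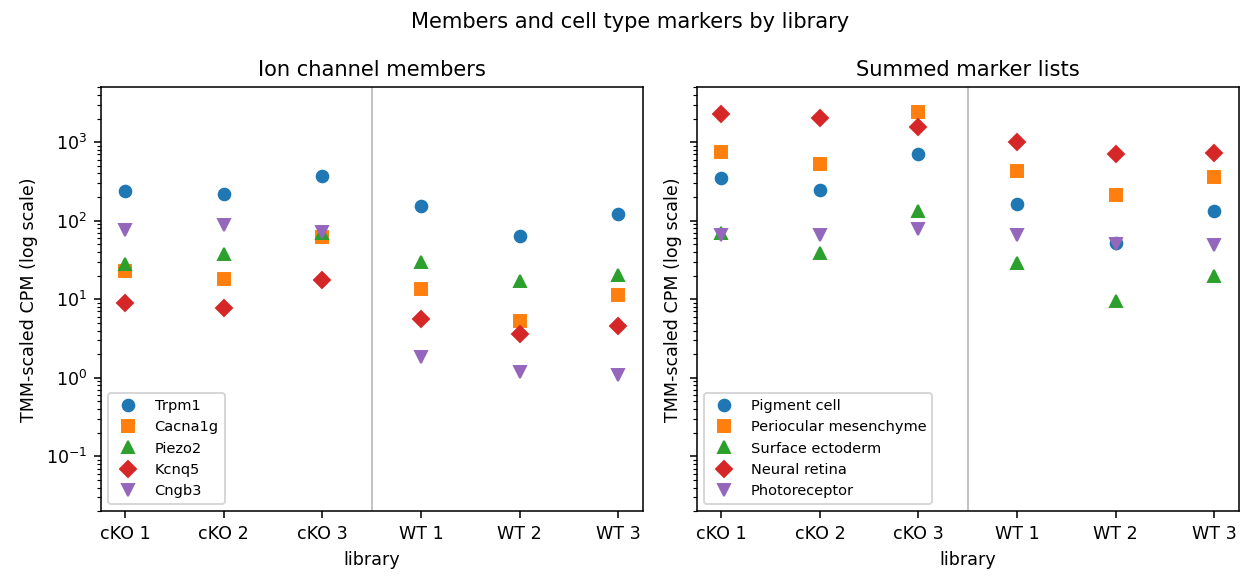
TMM-scaled CPM on a log axis in each of the 6 libraries (x axis, Prox1 cKO at left) for 5 ion channel genes (left panel) and for 5 summed marker lists (right panel). Trpm1, Cacna1g, Piezo2 and Kcnq5 are highest in Prox1 cKO library 3, as are the pigment, mesenchyme and ectoderm sums, while Cngb3 stays between 71.0 and 89.4 CPM across the Prox1 cKO libraries and the photoreceptor sum between 49.4 and 77.6 CPM across all 6.

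The remaining 66 of the 180 names were not tested, 57 with some counts and 9 with none. They include 16 of 40 voltage-gated potassium genes, 9 of 14 two-pore genes, 6 of 15 inward rectifiers, 5 of 6 cyclic nucleotide-gated genes and 4 of 6 Trpv genes. Kcnj6, for a G protein-gated rectifier, missed the filter with 1, 4 and 1 counts in the Prox1 cKO against 9, 43 and 67 counts in the wild type. Just outside the filter, at a third-highest count of 9, were also Kcnh8 and Trpm2, and just inside it, at 10, were among others Hcn2, Kcnj4, Kcnj5, Kcnk13 and Kcnmb2. Of the 114 tested, 90 had 10 or more counts in all 6 libraries, and Kcnj4, Kcnk13, Kcns3 and Kcnt1 had them in libraries of 1 group only, of which Kcnj4 was called.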

How the data were processed

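RNA from pools of 30 lenses was selected by poly-T beads, made into unstranded TruSeq v2 libraries and sequenced as single-end 51 bp reads, per the labels' protocols. Per the file headers, the authors gave each feature of a library its raw count, its CPM and its RPKM. The deposited CPM equalled the count divided by the library total within 1e-06, and the deposited RPKM divided that CPM by 1 length per feature. Per the submitters' processing notes, the build was GRCm38 and edgeR was used; the aligner was not given in the sources used here, nor were the counter and the annotation.

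Features with 10 or more counts in at least 3 libraries (14040) were scaled by TMM and tested on raw counts with edgeR 4.0.16 (quasi-likelihood, R 4.3.3, no covariate), with Benjamini-Hochberg adjustment over all of them and a threshold of 0.05; the script was tested on simulated data. Left out were 26 features whose count and CPM belong to different rows. RPKM served only to order genes per length and to count genes above fixed levels within a group. Coordinates and exon overlaps come from GENCODE mouse release 21, where all 180 names matched, and promoter and miRNA sequences from RefSeq (77 of 114 tested genes had a promoter). Named are Cngb3, Scn11a, Scnn1b, every called member, the 2 members of each class with the highest mean RPKM and members at the filter's edge; others were named after their values were seen, and a few genes are counted but not reported here by name. The members, the gene lists and the tests were chosen with earlier results of these data known. Alternatives were DESeq2 1.42.0, limma 3.58.1 with voom, 3 other scalings, 2 other filters, a replicate block and leaving out each library.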

Additional observations from a re-analysis of the deposited data

How the results depend on the processing

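Of the 48 ion channel members called, 27 kept the call under every alternative run. With 1 library left out, the ion channel members called numbered 29 to 53, of them 13 to 35 higher in Prox1 cKO and 16 to 19 lower; the lowest counts came without wild type library 2 (29, with 13 higher) and wild type library 3 (31, with 14 higher), and the highest without wild type library 1 (53). Among all genes called the same range was 2194 to 5175, with 839 to 2406 higher and 1355 to 2769 lower. DESeq2 and limma-voom called 46 each, and RLE and upper quartile scaling 48 each. The other filters called 49 of 116 tested and 53 of 171 tested. Total count scaling called 66 ion channel members, 51 higher in Prox1 cKO and 15 lower, and 5309 genes higher and 948 lower among all genes called. Under it Hcn3 (0.12), Scn8a (0.020), Scnn1a (0.019), Trpc1 (0.058) and Trpm3 (0.088) changed sign in log2, none of them called. Trpv4, at 0.02 with TMM, was -0.043 with limma-voom, -0.011 with the replicate block and between -0.27 and 0.19 with 1 library left out, below 0 without Prox1 cKO library 3, wild type library 2 or wild type library 3. Calls of Kcng1, Kcnh5, Kcnip3, Kcnq3 and Kcnu1 were lost with DESeq2, those of Hcn4, Kcnq3 and Kcnu1 among others with limma-voom, that of Kcnu1 with upper quartile scaling and with no filter, and those of Clcn3, Kcnc1, Kcnd3, Kcnh2 and Kcnu1 with total count scaling. The labels do not say that the replicate numbers pair the libraries. Deviations of same-numbered libraries correlated at -0.0361, 0.266 and 0.105, and those of different-numbered libraries between -0.224 and 0.0921. With so few libraries per group, these values cannot settle whether the libraries are paired. With the replicate block there were 44 calls, 26 higher and 18 lower, without Hcn4, Kcnc1, Kcng1, Kcnip3, Kcnq3 and Kcnu1, and 4115 calls over all genes. The cause of these shifts was not tested. Depth limits the low genes: 3 counts were worth up to 0.33 CPM by library total, without TMM, in the shallowest library. A transcript below that level cannot be told from a count of 0.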

Other observations

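Other genes of ion transport were counted in the same fit. Of 15 calcium pump and exchanger genes tested, 5 rose and 4 fell. Slc24a4, a potassium-dependent sodium-calcium exchanger gene, had 2.30, 8.12 and 7.48 CPM in the Prox1 cKO, against 68.2, 124 and 140 CPM in the wild type (log2 -4.35, SE 0.467, edgeR adjusted p 0.000416). Slc24a2, of the same family, had 0.824, 2.01 and 1.82 CPM in the Prox1 cKO, against 8.33, 12.5 and 14.7 CPM in the wild type (log2 -3.05). Slc24a5, the family member of pigment cells, went the other way (log2 1.84), with its highest value, 14.0 CPM, in Prox1 cKO library 3, where pigment cell markers were highest too. Of 9 sodium pump genes tested, 3 rose, among them Atp1b3 (log2 0.73) and Fxyd6 (log2 0.83), and 1 fell, the pump regulator gene Fxyd1 (log2 -1.72).

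Of 19 store-operated and intracellular calcium channel genes, 5 rose and 3 fell. Ryr2, the cardiac calcium release channel gene, had 10.4, 16.2 and 17.9 CPM in the Prox1 cKO, against 3.47, 2.91 and 4.25 CPM in the wild type (log2 2.05), and Orai2, a store-operated channel gene, had 9.12, 9.87 and 10.4 CPM in the Prox1 cKO, against 21.4, 24.5 and 25.9 CPM in the wild type (log2 -1.29). Of 14 anion channel genes outside the Clcn family, 4 rose and 0 fell, with Cftr at 12.6 ± 3.22 CPM in the Prox1 cKO and 5.40 ± 0.252 CPM in the wild type (mean ± SD of 3 libraries, log2 1.23). Of 18 other cation channel genes, 4 rose and 2 fell, and Asic2, for an acid-sensing channel, had the largest of these changes (log2 2.03). Of 7 cotransporter genes, 1 rose, Slc12a7 (log2 0.55). All are calls at an edgeR adjusted p below 0.05, where 16.0% of all features rose and 16.8% fell.

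Cngb3 lies 3.37 Mb from Calb1 on chromosome 4, and both had very large increases. Calb1, for a calcium-binding protein, had a mean of 51.2 CPM in the Prox1 cKO and 0.417 CPM in the wild type (log2 6.93, edgeR adjusted p 4.79e-06). Within 5 Mb of Cngb3 there were 28 other tested genes, of which 6 rose and 5 fell, with a median log2 difference of -0.00041. The shares over all features were 16.0% and 16.8%. Cpne3, 8631 bases from Cngb3 in the annotation, had no call (log2 0.09, edgeR adjusted p 0.534), whereas Rmdn1 and Wwp1, the next genes tested, fell (log2 -0.77 and -0.92). The pair was chosen after its values were seen.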
